A study of Mus musculus with 8 samples.

Results

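The nuclear genes that encode the machinery of oxidative phosphorylation (OXPHOS) were examined in liver RNA of mice that lack Usp39 in hepatocytes. They were taken by symbol from the deposited gene table: Nduf genes for complex I, Sdha to Sdhd for complex II, Uqcr genes for complex III, Cox4 to Cox8 genes for complex IV and Atp5 genes for complex V, without symbols that mark a pseudogene. This rule found 87 of 55699 table rows, or 85 of 55385 gene identifiers, because the symbols Ndufb4, Ndufb4b and Ndufb4c share 1 identifier. Complex I held 38 of the 85 genes, complex II 4, complex III 8, complex IV 18 and complex V 17. The symbol does not always fit the enzyme: Ndufa4 is grouped here with complex I by its name, although its protein is known as a subunit of complex IV. Ndufa11b was kept by its symbol and is counted in complex I, although GENCODE vM21 annotates it as a processed pseudogene.

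The study compared 4 Usp39-HKO male mice, Usp39 fl/fl animals carrying Albumin-Cre, with 4 control littermates whose genotype is labelled WT, and it does not say whether these controls carry the floxed allele. All 8 mice were 5 weeks old, were fasted for 16 h and had a C57BL/6J background. Albumin-Cre acts in cells of the hepatocyte lineage, so liver cells outside it are expected to keep Usp39, which encodes a spliceosome component. Each mouse gave 1 library of whole liver RNA with 8589636 to 10418450 counted reads, and mice are named here by their labels (controls A468, A472, A473 and A475, Usp39-HKO A469, A470, A471 and A474).

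Oxidative phosphorylation takes place in the inner mitochondrial membrane. Complexes I and II pass electrons from NADH and succinate to ubiquinone, complex III passes them on to cytochrome c, complex IV hands them to oxygen, and complex V (ATP synthase) uses the proton gradient built by complexes I, III and IV to make ATP. Most subunits are encoded in the nucleus and imported, a small core is encoded in mitochondrial DNA, and dedicated assembly factors join them. In the fasted liver this machinery carries the electrons released by fatty acid oxidation and supplies the ATP for glucose synthesis. Promoters of many of these nuclear genes are known to bind the factors NRF1, GABP (an ETS family protein) and YY1.

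Those known binding sequences were looked up in RefSeq promoters of build GRCm38.p6, which run from 250 bases before to 50 after the gene start and were given for 68 of the 85 members. The letters CGCATGCG (NRF1 core, its own reverse complement) stood in 9 of the 68 (13.2%), against 4.26% of the tested genes that have an entry and 2.07% of the 27025 genes with an entry. CCGGAAG (ETS core) or its reverse complement CTTCCGG stood in 17 (25.0%, against 1922 of 9614 tested genes with an entry and 9.93% of all genes with an entry), and AAGATGGC (YY1 core) or GCCATCTT in 10 (14.7%, against 5.26% and 3.19%). At least 1 of these motifs was found in 30 members, 44.1% against 27.0% of the tested genes with an entry and 14.1% of all genes with an entry. A few stretches are shown 5′ to 3′ in the gene's direction, with any of the motifs in capitals. Each holds 150 bases outside the annotated exons and ends 0 to 31 bases before the RefSeq start, of Cox6b2 and Ndufa6, whose RNA differed between the genotypes, and of Cox6a1 and Sdhd, the most abundant members of complexes IV and II. They lie at chr7:4753095-4753244, chr15:82354323-82354472, chr5:115348982-115349131 and chr9:50603850-50603999, all on the minus strand.
Cox6b2: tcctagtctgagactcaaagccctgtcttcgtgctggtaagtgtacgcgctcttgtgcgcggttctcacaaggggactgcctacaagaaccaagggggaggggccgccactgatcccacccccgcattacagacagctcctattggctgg
Ndufa6: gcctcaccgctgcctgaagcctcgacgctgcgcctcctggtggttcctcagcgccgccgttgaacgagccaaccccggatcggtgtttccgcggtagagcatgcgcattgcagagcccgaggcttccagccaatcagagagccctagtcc
Cox6a1: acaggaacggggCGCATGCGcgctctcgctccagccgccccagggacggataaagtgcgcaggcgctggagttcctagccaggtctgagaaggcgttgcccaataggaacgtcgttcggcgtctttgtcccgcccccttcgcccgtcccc
Sdhd: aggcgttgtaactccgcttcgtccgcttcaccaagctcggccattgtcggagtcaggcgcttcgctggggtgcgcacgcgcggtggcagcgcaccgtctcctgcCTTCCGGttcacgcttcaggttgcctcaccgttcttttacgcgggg
The Cox6a1 stretch held the NRF1 core and the Sdhd stretch the ETS core, while the stretches of Cox6b2 and Ndufa6 held none of these letters. The third called member, Ndufs7, held the YY1 core 24 bases after its RefSeq start, and its window is not shown because annotated exons overlap it. A match describes the letters and says nothing of binding in these livers. Among tested members with an entry, the median log2 difference between genotypes was -0.0047 in the 30 with a motif and -0.021 in the 36 without.

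The members were abundant. Mean level over the 8 mice, in FPKM (counts scaled to exon length and to the library total), was at least 10 for 75 of the 85 genes, with a median of 56.3. The highest were Cox6a1 at 380.2 FPKM and Atp5a1, the catalytic-core alpha subunit of ATP synthase, at 362 FPKM. Of the 85 genes, 79 reached 0.5 FPKM in at least 4 mice and were tested. The 6 others were Ndufa11b, grouped with complex I, and Cox4i2, Cox6a2, Cox7b2, Cox8b and Cox8c of complex IV. Ndufa11b had 2 counts summed over the 8 libraries, and the complex IV genes are described below by their counts.

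Few OXPHOS genes differed between Usp39-HKO and control livers. At an adjusted p under 0.05 (edgeR quasi-likelihood test with trimmed mean of M-values, TMM, factors and Benjamini-Hochberg adjustment over 14340 genes), Cox6b2 rose and Ndufa6 and Ndufs7 fell, and the other 76 tested members did not pass. That was 3.8% of the members, beside 22.5% of all genes tested, of which 1561 rose and 1664 fell. The median log2 difference was -0.024 over the members and -0.0015 over all genes tested. Members were also estimated more closely than most genes, with a median standard error (SE) of 0.12 against 0.17 on the log2 scale. The 95% interval of the difference lay within 0.5 of 0 on the log2 scale for 58 of the 79 members (73.4%), beside 30.3% of all genes tested. At an unadjusted p under 0.05, 9 of the 79 members differed, beside 35.3% of all genes tested. With DESeq2 1 member rose and 3 fell, beside 24.2% of all genes tested.

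With the cutoff the study used (log2 difference beyond 0.5 and p under 0.05 before adjustment), Cox6b2 passed and no other member did, beside 21.7% of all genes tested. Beyond 0.5 in either direction, whatever the p, lay 2 members, Cox6b2 and Cox7a1, and 28.4% of all genes tested.

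**Figure D1:**
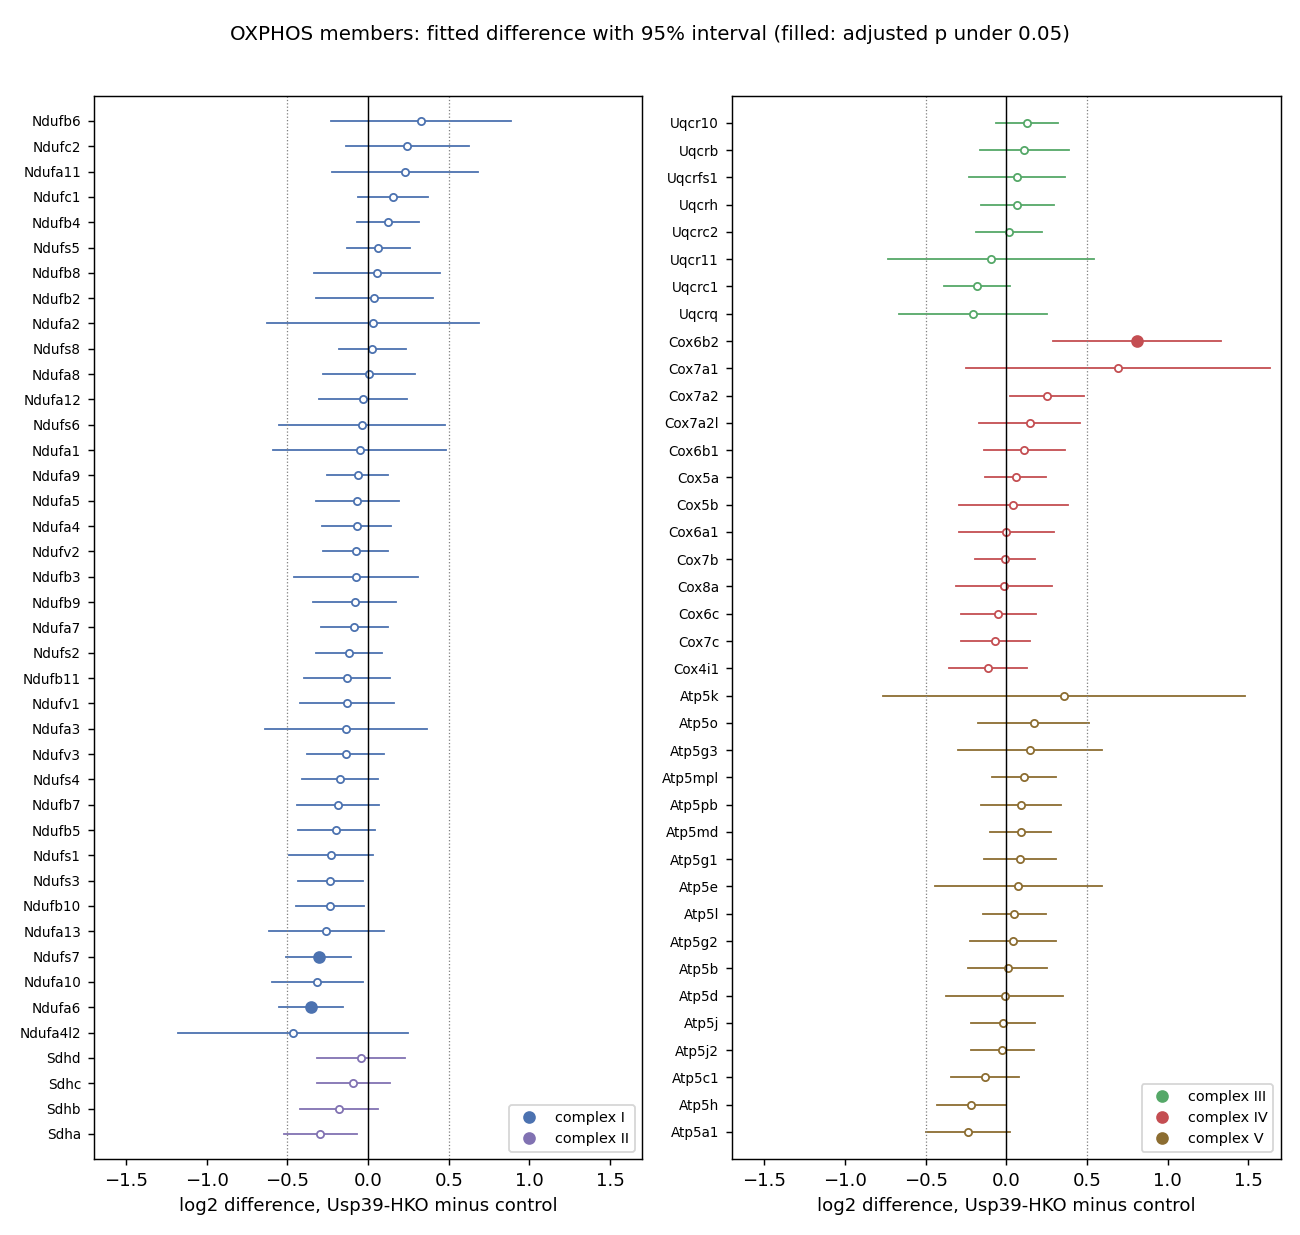
Fitted log2 difference (Usp39-HKO minus control, x axis) of each of the 79 tested members, 1 row a gene, coloured by complex, with its 95% interval. Filled points passed an adjusted p of 0.05, dotted lines mark 0.5 in each direction, and 3 points are filled: Ndufa6 and Ndufs7 to the left and Cox6b2 to the right.

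In complex I, which takes electrons from NADH, 2 of 37 tested members fell, none rose and the median log2 difference was -0.076. Ndufa6, an accessory subunit (chr15:82350140-82354322, minus strand), was at 60.7, 65.9, 67.9 and 71.7 FPKM in the controls and at 59.6, 59.9, 62.7 and 63.2 FPKM in the Usp39-HKO mice. The deposited FPKM of the groups overlapped, and once FPKM was divided by the TMM factor all Usp39-HKO values lay below all controls. The fitted log2 difference was -0.35 (SE 0.090), 0.784 times the control level, with an adjusted p of 0.018. Ndufs7, a core subunit that holds an iron-sulfur cluster (chr10:80249121-80256794, plus strand), was at 56.5, 59.1, 57.9 and 65.1 FPKM in the controls and 55.4, 60.3, 55.6 and 55.6 FPKM in the Usp39-HKO mice. Its groups overlapped too, mainly through Usp39-HKO mouse A470, and the log2 difference was -0.30 (SE 0.092, adjusted p = 0.035). Without TMM factors the log2 differences of Ndufa6 and Ndufs7 were -0.12 and -0.070, with adjusted p of 0.381 and 0.606.

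Leaving out single mice ended these calls in part. Ndufa6 kept an adjusted p under 0.05 in 5 of the 8 fits with a mouse left out (log2 difference -0.39 to -0.32, adjusted p 0.023 to 0.062), and Ndufs7 in 3 of 8 (-0.33 to -0.25, adjusted p 0.038 to 0.109). Another 3 complex I genes, named after their values were seen, had an unadjusted p under 0.05: Ndufs3, Ndufb10 and Ndufa10, with log2 differences of -0.23, -0.24 and -0.31 and adjusted p of 0.094, 0.099 and 0.103. Ndufa4, the most abundant gene of this symbol group, was at 128 ± 6.18 FPKM in controls and 143 ± 4.72 FPKM in Usp39-HKO mice (SD, n = 4), with a log2 difference of -0.070 after TMM scaling (SE 0.098). Of the 37 members, 26 had a fitted difference below 0.

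Complex II, succinate dehydrogenase, links the citric acid cycle to the respiratory chain and is encoded wholly in the nucleus. None of its 4 genes passed the edgeR test, 1 (Sdha) had an unadjusted p under 0.05, DESeq2 called 1, and all 4 fitted differences were below 0. Sdha, the flavoprotein subunit, was at 97.3, 109, 92.4 and 99.4 FPKM in controls and at 89.7, 99.4, 94.9 and 97.3 FPKM in Usp39-HKO mice, overlapping groups. Its log2 difference was -0.30 (SE 0.10, adjusted p = 0.058). The iron-sulfur subunit Sdhb was at -0.18 (SE 0.11, adjusted p = 0.275), and the membrane anchors Sdhc and Sdhd were at -0.092 (SE 0.10) and -0.046 (SE 0.12). Sdhd was the most abundant of the 4, at 182 ± 23.7 FPKM in controls and 207 ± 22.3 FPKM in Usp39-HKO mice (SD, n = 4).

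No tested gene of complex III or complex V passed in edgeR or in DESeq2, and at an unadjusted p under 0.05 there were 0 and 1 (Atp5h, a stalk subunit, named after its values were seen). In complex III the 8 log2 differences ran from -0.21 to 0.13 with a median of 0.043. Its most abundant member was Uqcrfs1, the Rieske iron-sulfur protein, at 189 ± 25.5 FPKM in controls and 232 ± 22.2 FPKM in Usp39-HKO mice (SD, n = 4), with a log2 difference of 0.069 (SE 0.14). In complex V the 17 differences ran from -0.23 to 0.36 with a median of 0.051. Atp5a1 was at 365, 392, 346 and 347 FPKM in controls and 381, 359, 334 and 375 FPKM in Usp39-HKO mice, fully overlapping, with a log2 difference of -0.23 (SE 0.12, adjusted p = 0.185).

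Subunit c of ATP synthase, the rotor ring, is encoded by Atp5g1, Atp5g2 and Atp5g3, which give the same mature protein. Atp5g3 supplied 64.6 ± 5.25% of their summed FPKM in controls and 66.1 ± 3.69% in Usp39-HKO mice (SD, n = 4). Atp5g2 supplied 25.3 ± 3.05% and 23.8 ± 0.713%, and Atp5g1 10.1 ± 2.204% and 10.04 ± 2.99%. Each share differed between genotypes by less than the larger SD. Their log2 differences were 0.15 (SE 0.20), 0.041 (SE 0.12) and 0.087 (SE 0.10). Atp5g1 and Atp5g2 share sequence of at least 150 bases at 97% identity or more with other genes, so their reads may be split, and their values are uncertain.

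Complex IV, cytochrome c oxidase, has paired genes for several subunits, a widely expressed form and a form typical of heart and muscle, testis or lung. In these livers the widely expressed form was far higher in each pair. Cox6b2, known as the testis form of subunit VIb (chr7:4751792-4753094, minus strand), was at 2.16, 2.91, 2.21 and 2.51 FPKM in controls and at 6.04, 5.93, 4.16 and 4.00 FPKM in Usp39-HKO mice. All Usp39-HKO values lay above all controls, with 21 to 32 counts in a control library and 42 to 67 in a Usp39-HKO library. The log2 difference was 0.81 (SE 0.24, 95% interval 0.29 to 1.33), a 1.75-fold level, with an adjusted p of 0.031. Of the 8 fits with a mouse left out, 3 kept it under 0.05 (log2 difference 0.70 to 0.94, adjusted p 0.022 to 0.085), so at these counts the call depends on which mice are in it. Its partner Cox6b1 was at 160 ± 12.0 FPKM in controls and 203 ± 25.2 FPKM in Usp39-HKO mice (SD, n = 4), with a log2 difference of 0.11 (SE 0.12, adjusted p = 0.525). Cox6b2 thus made up 1.51 ± 0.121% of the pair's summed FPKM in controls and 2.48 ± 0.795% in Usp39-HKO mice.

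**Figure D2:**
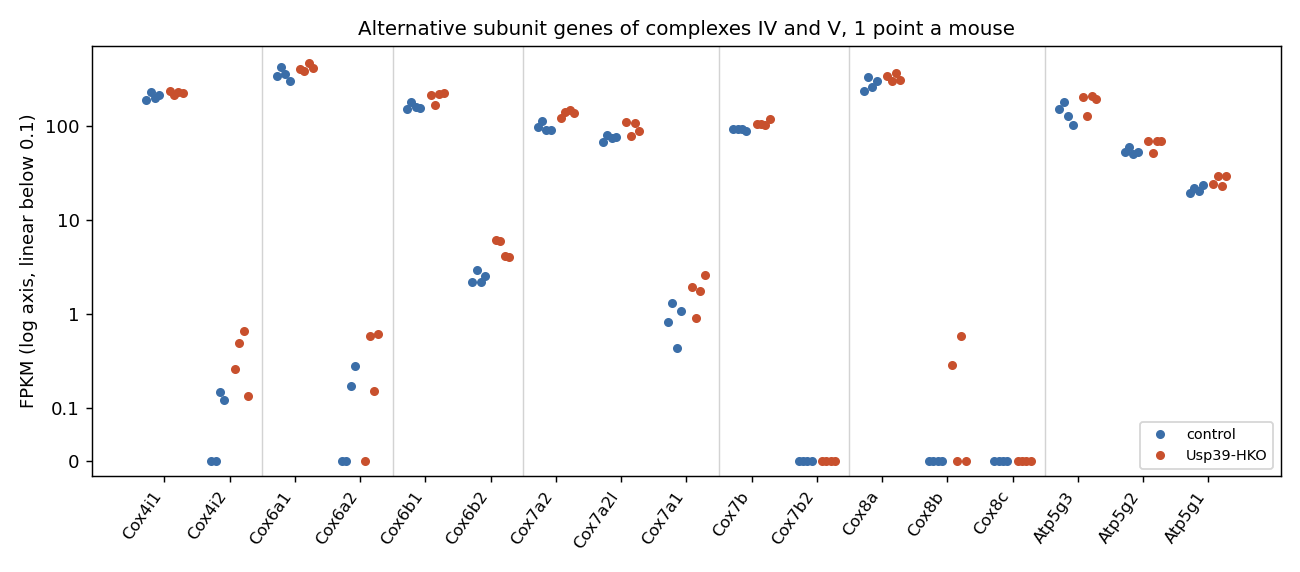
FPKM (y axis, logarithmic above 0.1 and linear below) of alternative subunit genes of complexes IV and V, 1 point a mouse, controls in blue and Usp39-HKO mice in orange. In each pair the widely expressed gene lies far above the other, and the Cox6b2 points of the 2 genotypes do not overlap (2.16 to 2.91 against 4.00 to 6.04 FPKM).

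The other paired genes gave no call. Cox7a1, the heart and muscle form of subunit VIIa, had 2 to 13 counts a library, 0.911 ± 0.379 FPKM in controls and 1.79 ± 0.678 FPKM in Usp39-HKO mice (SD, n = 4). Its log2 difference was 0.69 with a wide 95% interval of -0.25 to 1.64 (adjusted p = 0.278). Its liver form Cox7a2 was at 96.8, 111, 88.8 and 90.3 FPKM in controls and 122, 140, 146 and 135 FPKM in Usp39-HKO mice, all higher than the controls in deposited FPKM. After TMM scaling these groups overlapped, and the log2 difference was 0.25 (SE 0.10, adjusted p = 0.110). The related Cox7a2l, known as a supercomplex assembly factor, was at 0.15 (SE 0.14, adjusted p = 0.501), and part of its transcript is shared with another gene. Cox4i1, Cox6a1, Cox7b and Cox8a had log2 differences of -0.11, 0.0019, -0.0064 and -0.011 (SE 0.11, 0.13, 0.085 and 0.14). Cox6a1 alone was at 349 ± 53.0 FPKM in controls and 411 ± 34.4 FPKM in Usp39-HKO mice (SD, n = 4).

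Untested forms were at or near the counting limit. Cox4i2, the lung form, had 14 counts summed over the 8 libraries, Cox6a2, a heart and muscle form, had 12, and Cox8b, also known from heart and muscle, had 3, all in Usp39-HKO mice A469 and A471. Cox7b2 and Cox8c had 0 counts in every library, which allows up to 3 counts in each, or 0.288 to 0.349 CPM (counts scaled to a common library total). Muscle markers were near 0 as well: none of 10 reached the filter, and their summed FPKM was at most 0.642 in a mouse.

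Scaling shifts the members and all other genes together. Control libraries had TMM factors of 0.911 to 0.940 and Usp39-HKO libraries of 1.01 to 1.19, so that dividing by them lowers Usp39-HKO values relative to controls. Without them the median log2 difference was 0.22 over the members and 0.24 over all genes tested. In that fit 15 members rose and none fell, 19.0% of the members, beside 24.6% of all genes tested that rose. Cox7a2, Cox6b1 and Cox7a2l were among the 15, and their TMM-scaled values are given above. The median of the members minus that of all genes was -0.023 with TMM factors and -0.021 without, and over all alternatives it lay between -0.067 and 0.048.

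**Figure D3:**
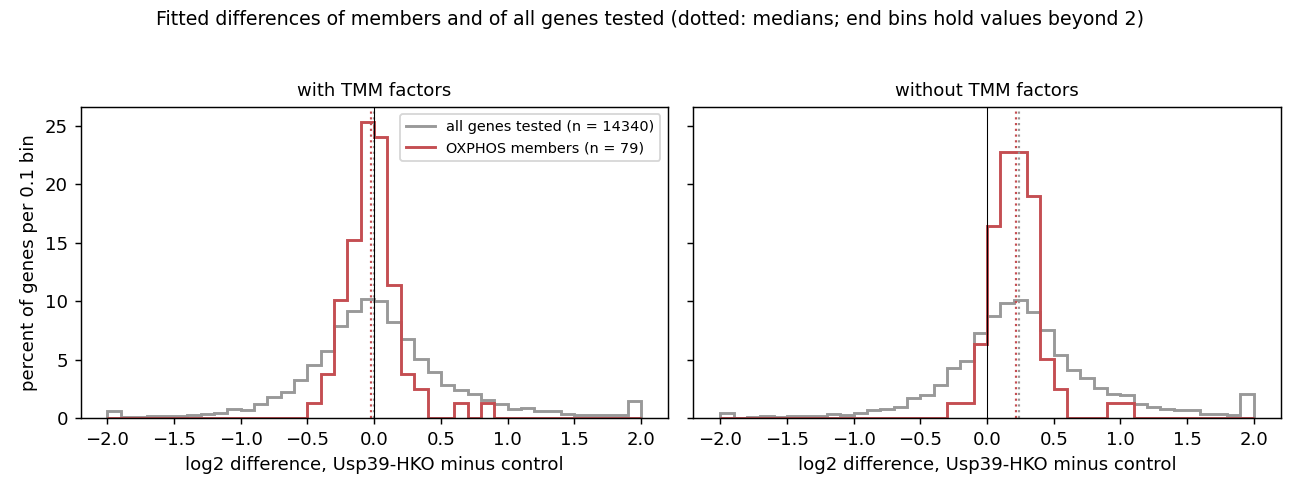
Percent of genes (y axis) in bins 0.1 wide of the fitted log2 difference (x axis), for all 14340 genes tested in grey and the 79 members in red, with dotted lines at the medians. The members form a narrower peak than all genes in both panels, and both peaks move by about the same amount without TMM factors (medians 0.22 and 0.24).

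The same was seen in the deposited FPKM of single genes. In 16 members (20.3%) all Usp39-HKO values lay above all controls, beside 23.9% of all genes tested, and in 0 members they lay below, beside 4.81%. With FPKM divided by the TMM factor, 1 member lay wholly above (Cox6b2), beside 11.8% of all genes tested. In that scale 6 members lay wholly below, beside 13.0%. These were Ndufa6, Ndufs7, Ndufs3, Sdha, Uqcrc1 (a core protein of complex III) and Atp5c1 (the gamma subunit of ATP synthase), the last pair named after their values were seen. The last 4 were not called in the fit, with adjusted p of 0.094, 0.058, 0.191 and 0.355.

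Summed over all members, the level was 5840, 7008, 5870 and 5983 FPKM in controls and 7209, 6531, 7496 and 7211 FPKM in Usp39-HKO mice. The Usp39-HKO mean was 1.15 times the control mean, and the groups overlapped because control A472 lay above Usp39-HKO A470. As a share of counted reads, the members' range was 1.07 to 1.21% (controls) against 1.196 to 1.30% (Usp39-HKO). Divided by TMM factors, the summed level was 6704 ± 600.3 FPKM in controls and 6563 ± 605 FPKM in Usp39-HKO mice (SD, n = 4), a ratio of 0.979. By complex, this scaled ratio was 0.950 for complex I, 0.910 for complex II, 1.01 for complexes III and IV and 0.978 for complex V. Groups overlapped in every complex on this scale. As a share of counted reads, without TMM factors, complex IV was at 0.1498 to 0.1796% (controls) against 0.1804 to 0.2028% (Usp39-HKO). Complex V was at 0.4293 to 0.4933% against 0.4985 to 0.5523%, also without overlap, and complexes I, II and III overlapped. Of all single genes tested, 23.9% lay wholly higher in Usp39-HKO mice in deposited FPKM, which also carries no TMM factor, and 4.81% wholly lower. None of these sums was tested. In whole-liver RNA, fewer cells of a type and less RNA per cell cannot be told apart.

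**Figure D4:**
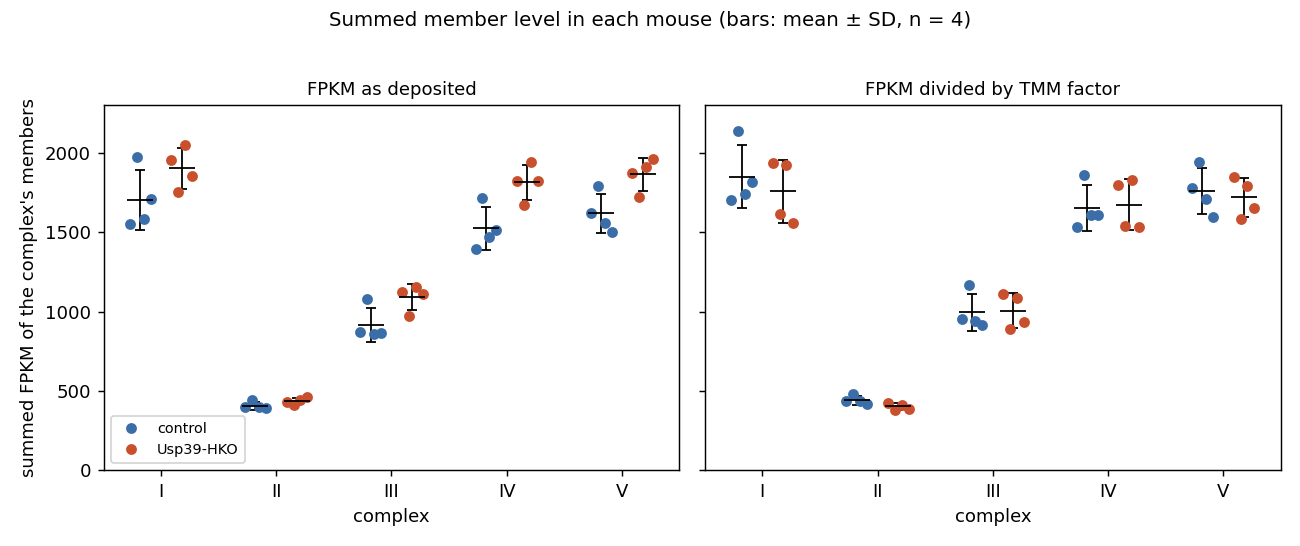
Summed FPKM of the members of each complex (y axis) in each mouse, controls in blue and Usp39-HKO mice in orange, with bars for mean ± SD of 4 mice. Deposited FPKM (left) is 1.07 to 1.19 times higher on average in Usp39-HKO mice in the 5 complexes, and after division by the TMM factor (right) the groups overlap in each.

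Mice of the same genotype differed in part of these genes together. Between mice of a genotype, the median SD of log2 CPM was 0.15 over the members and 0.24 over all genes tested. Around the group means, 1 component held 69.95% of the members' squared deviations of log2 CPM, and 62 of 79 members loaded on it with the same sign. It was taken over the members alone, and a few genes weighed most: Atp5k had a loading of 0.50 and Ndufa2, the next, 0.27. Its sign was set so that A472 is positive. Control A472 and Usp39-HKO A469 and A471 were high on it, and the other 5 mice lay below 0. In A472, 65 of 79 members lay above their group mean, and in A474 18 did. Atp5k, the e subunit of ATP synthase, moved most and was named after its values were seen: it had 291, 445, 142 and 94 counts in controls and 447, 108, 578 and 343 counts in Usp39-HKO mice. The small accessory subunits Ndufa2, Uqcr11, Ndufb6 and Ndufa1 were picked by their high loadings, so that they followed the same mice is given by that choice. The 95% interval of the genotype difference of Atp5k was -0.77 to 1.48.

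**Figure D5:**
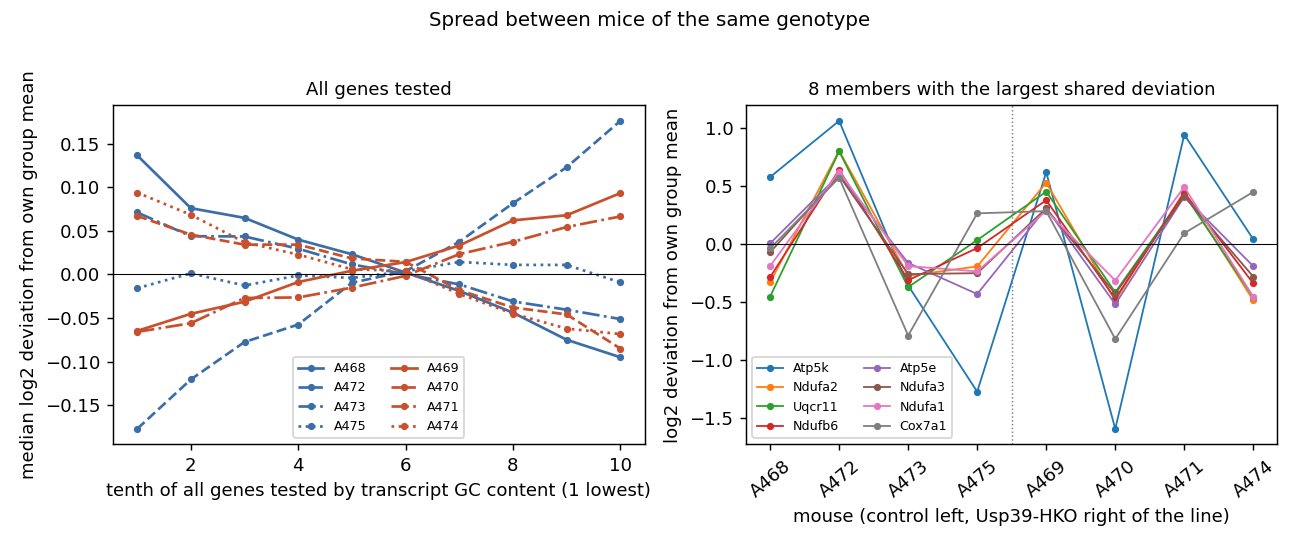
Left: median log2 deviation of all genes tested from their own group mean (y axis) in 10 equal bins of transcript GC content (x axis), 1 line a mouse. Right: deviations of the 8 members that load most on the shared component in each mouse. A472 goes from -0.18 in the lowest to 0.18 in the highest bin on the left. It is the highest control for all 8 genes on the right, which were picked by a loading whose sign was set by A472.

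This spread moved with exon length, less with transcript length and, across all genes, with base composition. Over the 79 members, the loading on the component had a Spearman rho of -0.52 with exon length and -0.33 with transcript length. With transcript GC content it was 0.13. The SD between mice had a rho of -0.45 with exon length and -0.24 with transcript length. These are descriptions over genes that share libraries. The median SD between mice of a genotype was 0.20 in the 40 members of at most 1587 exonic bases and 0.12 in the 39 longer ones. Members were short, with a median of 1587 exonic bases against 3668 for all genes tested. Across all genes tested, A472, A469 and A471 gave higher values to GC-rich transcripts, with median deviations of 0.18, 0.093 and 0.066 in the highest of 10 bins of GC content. A468, A470, A473 and A474 were at -0.095, -0.085, -0.051 and -0.069 there. With offsets for transcript GC content in the fit, an alternative added after these values were seen, the same 3 members were called, beside 24.6% of all genes tested, and the members' median was -0.020. With exon length added to the offsets Sdha was called as well (log2 difference -0.30, adjusted p = 0.044). The part of RNA quality or library preparation in the spread was not tested.

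Counts called in other lists of the system are to be read beside the 22.5% of all genes tested. Every fall named in this paragraph and the next lost its call without TMM factors. Of 51 assembly factors, 48 were tested, 0 rose and 5 fell (median log2 difference -0.065). In complex IV assembly 4 of 19 tested genes fell, or 21.1%, close to the share of all genes called. These were Lrpprc, which stabilises mitochondrial mRNA, at -0.51 (SE 0.13, adjusted p = 0.019), Coa6 and Surf1 at -0.50 and -0.46, and Taco1 at -0.36. Ecsit, a complex I assembly factor, was at -0.47 (SE 0.13, adjusted p = 0.021). Ecsit, Coa6, Taco1 and Surf1 overlap a gene on the opposite strand over part of their exons (24.02, 14.1, 17.7 and 7.82% of exonic bases). With a mouse left out, Coa6, Surf1 and Taco1 each kept their call in 1 of 8 fits (adjusted p up to 0.115, 0.123 and 0.115), and DESeq2 did not call Taco1 (adjusted p = 0.054). Without TMM factors the log2 differences of these 5 were -0.12 to -0.27. In the assembly lists without a call, the lowest adjusted p was that of Sdhaf4 for complex II (-0.30, adjusted p = 0.326), Lyrm7 for complex III (-0.76, adjusted p = 0.072) and Atpaf2 for complex V (0.21, adjusted p = 0.203). At an unadjusted p under 0.05 these lists held 0 of 4, 2 of 6 and 0 of 3 tested genes, beside 35.3% of all genes tested, and DESeq2 called none. By adjusted p, the next in each were Sdhaf2 (-0.11), Bcs1l (-0.41) and Atpaf1 (0.14), and in complex I assembly Tmem126b (-0.30, adjusted p = 0.120). Of 77 tested mitochondrial ribosomal protein genes, which build the ribosome that makes the mitochondrially encoded subunits, 1 rose and 4 fell (median -0.029), with Mrpl24 and Mrps24 at -0.44 and -0.49. None of 8 genes of mitochondrial DNA maintenance and transcription passed in edgeR or DESeq2, and 1 had an unadjusted p under 0.05. Lowest there were Tfb1m (-0.36, adjusted p = 0.070) and Polg2 (-0.31, adjusted p = 0.173).

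Genes next to the respiratory chain moved in both directions, with shares called to be read beside the 22.5% of all genes tested. Subunits and partners whose symbols fall outside the rule included 2 that rose among 4: Atpif1, which encodes the inhibitor of ATP synthase, at 0.87 (SE 0.21, adjusted p = 0.012), and Cycs, cytochrome c, at 0.31 (SE 0.091, adjusted p = 0.031). The Cycs call was lost with the GC offsets (adjusted p = 0.066) and kept in 3 of 8 fits with a mouse left out. Atpif1 was at 3.85 ± 0.796 FPKM in controls and 8.37 ± 2.47 FPKM in Usp39-HKO mice (SD, n = 4), and a gene on the opposite strand overlaps 33.7% of its exonic bases. Cyc1 and Ndufab1 were at -0.0079 and -0.059 and did not pass. In the citric acid cycle 3 of 13 genes rose and 3 fell. Cs (citrate synthase) and Idh3a rose, both at 0.48 (SE 0.11), and Mdh2 at 0.39, while Ogdh, Idh3b and Sucla2 fell, at -0.49, -0.39 and -0.32. Of 12 genes for abundant proteins of the outer and inner mitochondrial membrane and import, Vdac2, a pore of the outer membrane, rose by 0.31 (SE 0.095, adjusted p = 0.038) and the other 11 did not pass (Tomm40 was next, at 0.32 with an adjusted p of 0.150).

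Among 9 transcriptional regulators of the respiratory genes, 2 rose and 1 fell, 33.3% of a short list beside 22.5% of all genes tested. Nrip1, a corepressor, rose by 0.50 (SE 0.11, adjusted p = 0.0079) and Pprc1, a PGC-1 related coactivator, by 0.49 (SE 0.13, adjusted p = 0.020). Yy1 was at -0.28 (SE 0.092, adjusted p = 0.049), a call that 18 of 20 alternatives did not keep. Nrf1, Gabpa and Gabpb1 did not pass, at 0.12, -0.18 and 0.33 (adjusted p 0.501, 0.179 and 0.102). Ppargc1a, the fasting-induced coactivator PGC-1alpha, was at 8.78 ± 2.91 FPKM in controls and 7.36 ± 3.31 FPKM in Usp39-HKO mice (SD, n = 4), with a log2 difference of -0.47 (SE 0.32, adjusted p = 0.324). Ppargc1b and Esrra were at 0.039 and 0.26 and did not pass. Of the 22 called genes in these lists, Atpif1, Cs, Idh3a and Nrip1 kept their call whichever mouse was left out, and the others in 0 to 5 of 8 fits.

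None of the 13 mitochondrially encoded subunits was called by edgeR, 3 had an unadjusted p under 0.05, and DESeq2 called 2 (ND2 and ND5). With the GC offsets edgeR called ND2 as well (-0.50, adjusted p = 0.039), and ND2 and ND5 were each called in 1 of the 8 fits with a mouse left out. The median log2 difference of the 13 was -0.21, beside -0.024 over the nuclear members. Together the 13 took 2.28 to 2.79% (controls) and 2.36 to 2.60% (Usp39-HKO) of counted reads, overlapping groups. In this share, which carries no TMM factor, the Usp39-HKO mean was 0.98 times the control mean, beside 1.13 for the nuclear members. ND2 and ND5 were lowest in adjusted p, at -0.44 (SE 0.16, adjusted p = 0.074) and -0.39 (SE 0.16, adjusted p = 0.105). COX2, COX3, ATP6, ATP8, ND3 and ND4L had control means of 2.70 to 40.9 FPKM, against 4561 FPKM for COX1, although they lie on the same mitochondrial transcripts, so their counts are uncertain.

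Usp39 itself was at 9.35, 10.4, 8.76 and 9.78 FPKM in controls and at 8.37, 8.63, 8.70 and 8.07 FPKM in Usp39-HKO mice, without overlap (exact two-sided permutation test p = 0.029, the smallest that 4 against 4 mice allow). The fitted log2 difference was -0.41 (SE 0.11, adjusted p = 0.021). Counts over the whole gene do not measure loss of the floxed exon alone, and liver cells outside the hepatocyte lineage are expected to keep the gene. RNA of cell type markers differed with genotype too, with counts called to be read beside the 22.5% of all genes tested. Of hepatocyte markers 6 of 12 fell, and 5 of 5 tested erythroid markers fell. Of cholangiocyte markers 4 of 4 tested rose, as did 7 of 9 stellate cell and 7 of 8 macrophage markers. Whether cell numbers or RNA per cell differed was not tested. Without TMM factors 2 of these 6 hepatocyte falls and all 5 erythroid falls kept their call. Of 6 endothelial markers 2 fell, of 7 lymphocyte markers 1 rose, and the single tested pancreas (Cela1) and brown fat (Ppargc1a, also a regulator above) markers did not pass. Cholangiocyte markers summed to 26.4 to 28.7 FPKM (controls) against 64.2 to 286 FPKM (Usp39-HKO), and hepatocyte markers to 21835 to 23987 against 18267 to 24753 FPKM. The part of cell composition in the OXPHOS values was not tested. Control A475 also held pancreatic RNA: pancreas markers summed to 578 FPKM there against 3.32 to 4.97 FPKM in Usp39-HKO mice. Without A475 no member was called by edgeR, 4 had an unadjusted p under 0.05, 14.2% of all genes were called, the members' median was -0.044, and Cox6b2 was at 0.81 with an adjusted p of 0.074.

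Precision differs between members. Overlap or sequence similarity can blur the counts of 28 members that share at least 150 bases at 97% identity or more with another gene, and 11 whose exons overlap another gene over more than 10% of their length. Cox6b2, Ndufa6 and Ndufs7 are in neither group. Restricting the fit to genes of at least 5 FPKM on average left 75 members, of which Cox7a2 rose (0.33, adjusted p = 0.032) and Ndufa6 fell, 2.67% of them beside 23.9% of the 6672 genes tested.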

How the data were processed

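Liver RNA of 4 control and 4 Usp39-HKO male mice was sequenced in paired ends on a NovaSeq instrument (TRIzol extraction, NEB Next Ultra kit). Per the submitters' processing notes and methods, the authors trimmed reads with Trim Galore 0.6.1, checked them with FastQC 0.11.9, aligned them to mm10 with HISAT2 and counted them with featureCounts. Picard is also listed among their tools. Annotation release, strand setting and the handling of multi-mapping reads are not given in the sources used here. Every member's exon length in the table equals that in GENCODE vM21.

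The authors deposited 1 table with raw counts, exon lengths and FPKM per mouse, in which FPKM is the count scaled to exon length and to the library's counted reads. The table's columns of the authors' DESeq2 comparison (normalized mean, fold change, p-values) were not used.

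Repeated rows of an identifier were taken once. The 14340 genes that reached 0.5 FPKM in 4 or more mice were fitted with edgeR 4.0.16 (R 4.3.3): quasi-likelihood test on the deposited counts, TMM factors, genotype as the term, Benjamini-Hochberg adjustment over all genes tested. Intervals are 95% and come from this fit. SDs are between mice. DESeq2 1.42.0, limma 3.58.1, other scalings, filters, offsets for exon length and transcript GC content, and each mouse left out were alternatives. The GC offsets were chosen after seeing the data. The edgeR fit with TMM factors was tested on simulated data, without offsets and with exon length offsets. The fits with transcript GC offsets and the DESeq2 and limma alternatives were not. Levels are compared between genes in FPKM, which is per length. No 2 mice of a genotype agreed within sampling noise (chi-square per degree of freedom at least 7.02). Depth was 8589636 to 10418450 counts a library, and floors of 3 counts cover counting error only.

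Members were found by their symbols, and shared sequence with BLAST+ 2.17.0. Members and gene lists were chosen with earlier results of these data known. Named genes were, in each complex, the called members and the most abundant one, all genes of isoform pairs, the Sdh genes, the 2 genes of lowest adjusted p in each other list, all regulators and Usp39. Further called genes of the assembly and citric acid cycle lists (Surf1, Taco1, Mdh2, Ogdh, Idh3b and Sucla2) were named after their values were seen. Promoter sequences and starts are from RefSeq (GRCm38.p6), other coordinates from GENCODE vM21 (GRCm38, the assembly also named mm10). Pairing between genotypes was not labelled.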

Additional observations from a re-analysis of the deposited data

Results flagged for a closer look

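Within groups of 4 mice, a single mouse lay far from its 3 group mates in 14 of 148 groups examined, where chance gives about 1 in 20. Control A472 stood above the other controls in the summed FPKM of all members (7008 against 5840 to 5983), of complex II (445 against 391 to 396) and of complex III (1079 against 860.2 to 871), and in Esrra (16.1 against 9.13 to 10.1 FPKM), Epcam (1.29 against 0.844 to 0.875 FPKM) and Vdac2 (27.5 against 25.5 to 25.6 FPKM). It is the mouse with the strongest trend toward GC-rich transcripts. Control A475 stood apart in Cela1 (50.1 against 2.45 to 2.83 FPKM), Coa6 (51.1 against 41.8 to 43.3 FPKM) and Yy1 (14.9 against 16.0 to 16.2 FPKM), and control A473 in Lyve1 (28.8 against 20.9 to 21.8 FPKM). Among Usp39-HKO mice, A470 was low in Atp5g2 (51.6 against 67.9 to 69.4 FPKM) and high in Ndufs7 (60.3 against 55.4 to 55.6 FPKM), A474 was high in Vdac2 (45.8 against 34.9 to 36.4 FPKM), and A469 was low in Yy1 (13.3 against 15.9 to 16.1 FPKM). The causes were not tested.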

How the results depend on the processing

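Fitted without TMM factors, 15 members were called, all higher in Usp39-HKO, 2 passed the study's cutoff, the members' median was 0.22, 34 genes of the other mitochondrial lists were called (22 in the fit reported above, of 184 tested) and Usp39 was at -0.18 (adjusted p = 0.247). limma on log2(FPKM + 1) and on log2(FPKM + 0.1), which carry no TMM factor, each called 11 members, all higher (13.9% of members, beside 21.1 and 21.3% of all genes that rose), with 2 past the cutoff, medians of 0.20 and 0.21, and Usp39 at -0.16 and -0.18. limma-voom with quality weights called 6 members (2 higher, 4 lower, 7.59% beside 29.2% of all genes). Without a filter on low values 2 members passed the cutoff and 14 list genes were called, beside 13.2% of all genes. With a mean of at least 5 FPKM these were 0 and 12, beside 23.9% of all genes. The fit without TMM factors called 29.4% of all genes. The difference in summed member FPKM, 936 higher in Usp39-HKO, was -141 after division by TMM factors. Leaving out 1 mouse gave 0 to 4 called members (0 without control A473 or A475, with 6 and 4 at an unadjusted p under 0.05, and 1 without control A468 or Usp39-HKO A474), 1 to 2 past the cutoff (2 without Usp39-HKO A470 or control A472), a median of -0.065 to 0.043, 5 to 20 list genes (5 without control A473, 6 without A474 or A475, 9 without A468, 11 without A471), Usp39 at -0.45 to -0.35 (adjusted p 0.029 to 0.061, over 0.05 without Usp39-HKO A474 or control A475) and a summed difference of 808 to 1214 FPKM. Cox6b2 kept an adjusted p under 0.05 in 14 of 19 alternatives, Ndufa6 in 14 of 20 and Ndufs7 in 9 of 20, each with the same direction throughout. Other named genes lost a call or gained 1 in single alternatives, the uncalled ones changing sign 61 times, over 14 genes. The causes were not tested. At this depth, genes of few counts such as Cox6b2 carry wide intervals. No paired analysis was possible because the labels name mice and give no replicate number shared between genotypes.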
